A study of Mus musculus with 8 samples.

Results

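The genes described here are 43 genes of DNA methylation and repressive chromatin, out of 24346 genes with a value in the deposited table. They were chosen by symbol: the writers, erasers and readers of DNA methylation, the Polycomb complexes, the enzymes of histone H3 lysine 9 (H3K9) methylation with the proteins that bind this mark, and the histone deacetylases (HDACs). The rule lists symbols and holds no threshold on a measured value, although earlier results of these data were known when the list was drawn up. RNA was measured in mesenchymal stem cells (MSCs), the adherent stromal cells of bone marrow with the capacity to become osteoblasts, adipocytes or chondrocytes, from mice of the C57BL/6 background. The cells were wild type (WT) or lacked *Dnmt3l* (*Dnmt3l* KO, from mice homozygous for a mutant allele in every cell of the animal), and both genotypes came from littermates. They were collected undifferentiated in medium with 20% serum, or differentiating, which means 3 days after osteogenic induction in medium with 10% serum, 0.1 µM dexamethasone, 10 mM β-glycerophosphate and 50 µM ascorbic acid 2-phosphate. All cells were at passage 4 and had been depleted of CD11b and CD45 positive cells. Cells of several mice were mixed by genotype. Each of the 4 groups had 2 libraries, and the labels do not say whether these came from separate mixes or cultures, so the p-values measure only the spread between these samples.

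DNA methylation marks cytosines that stand before a guanine. De novo enzymes of the DNMT3 family set it, with DNMT3L as a cofactor that has no activity of its own, and DNMT1, guided by UHRF1 to newly copied DNA, maintains it when cells divide. Polycomb repressive complex 2 (PRC2) methylates lysine 27 of histone H3 and Polycomb repressive complex 1 (PRC1) ubiquitylates histone H2A, and both hold developmental genes silent. H3K9 methylation is read by the heterochromatin protein 1 (HP1) family and covers repeats and compact chromatin, while HDACs remove acetyl groups as parts of repressor complexes. In this tissue the EZH2 arm of PRC2 and several HDACs are known as regulators of the choice between bone and fat.

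The unit was RPKM, the reads mapped to a gene, scaled by the length of its transcript and by the mapped reads of the library. The low values of the table pointed to 47.8 to 66.5 M scaled reads per library, at which 3 reads on a member gene would give between 0.00318 RPKM (*Tet1* in the deepest library, replicate 1 of differentiating WT MSCs) and 0.0429 RPKM (*Mbd3* in the shallowest). This floor covers counting error only. *Dnmt3l*, the gene removed, was at 1.56 and 1.09 RPKM in undifferentiated WT MSCs and at 0.845 and 0.830 RPKM in differentiating WT MSCs, and was listed at 0 in all 4 KO libraries. The study describes the *Dnmt3l* transcript of WT MSCs as a shortened one and did not detect the canonical protein in cultured MSCs, so the WT cells are not a group with measured DNMT3L protein, and this table of gene values does not separate transcripts. Of 12 markers of mesenchymal stromal cells all were at or above 1 RPKM in every group. Of 12 leukocyte markers 5, 5, 5 and 3 reached 1 RPKM in undifferentiated WT, differentiating WT, undifferentiated KO and differentiating KO MSCs, and their summed RPKM was 20.8 and 21.7, 33.1 and 38.0, 11.2 and 10.2, and 14.3 and 15.3 in that order. *Ptprc*, which encodes CD45, was at most 0.127 RPKM and was listed at 0 in replicate 1 of differentiating KO MSCs. The 8 endothelial markers summed to between 1.46 and 4.95 RPKM per library, with *Cldn5* listed at 0 in all 4 differentiating libraries. Over the 799 to 850 genes per group with at least 100 estimated reads, the chi-square between replicates averaged from 2.56 per gene (undifferentiated KO MSCs) to 19.04 per gene (differentiating KO MSCs), above sampling noise. The medians were 0.75 and 2.27 per gene, below the means. The median of differentiating KO MSCs was the highest of the 4 groups, so the wider spread there was not confined to a few genes.

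All 43 genes passed the filter on low values (0.1 RPKM or more on average, which 15342 genes passed), and none was at 0 in any library. In 38 of them every library was at or above 1 RPKM, and in 15 every library was at or above 10 RPKM. *Cbx3*, which encodes HP1γ, had the highest mean over the 8 libraries (99.8 RPKM), followed by *Hdac2* (54.7), *Trim28* (53.7) and *Ehmt2* (47.0). At the other end stood *Tet1* (0.208), *Hdac9* (0.370), *Dnmt3b* (0.399), *Cbx7* (0.712) and *Suv39h2* (1.10). The ratio of the highest to the lowest library was under 1.2 for *Dnmt3a* (1.14), *Setdb1* (1.16), *Hdac3* (1.16) and *Ehmt1* (1.17), and reached 11.6 for *Uhrf1*, 8.04 for *Cbx7*, 6.79 for *Hells*, 4.36 for *Ezh1* and 4.09 for *Suv39h2*. The heatmap of all members shows both kinds side by side.

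**Figure D1:**
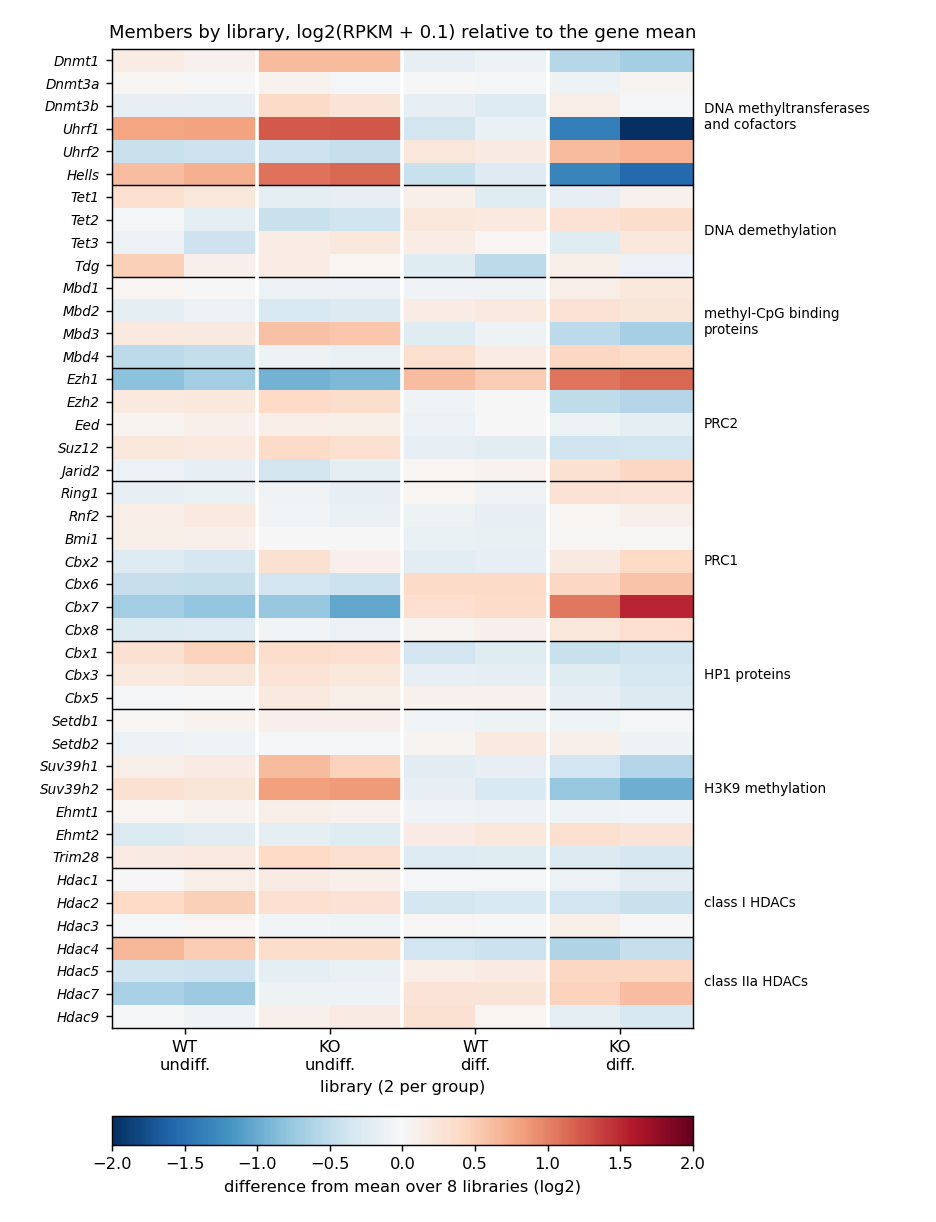
Each row is a gene and each column a library, with 2 libraries per group, and colour gives the log2(RPKM + 0.1) of the library minus the gene's mean over the 8 libraries, from blue (lower) through white to red (higher). *Uhrf1* and *Hells* run from red in undifferentiated to deep blue in differentiating *Dnmt3l* KO MSCs, *Ezh1* and *Cbx7* run the other way, and *Dnmt3a*, *Eed* and *Setdb1* stay near white.

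Osteogenic induction was compared first, within each genotype, to see which of these genes move as MSCs leave the undifferentiated state. A gene was counted as higher or lower when its adjusted p in limma was under 0.05, with fold changes on the log2(RPKM + 0.1) scale, where changes of weakly expressed genes come out too small. In WT MSCs 12 of the 43 genes rose and 19 fell on induction, while 31.6% of all genes tested rose and 32.8% fell. In *Dnmt3l* KO MSCs 16 rose and 19 fell, against 36.4% and 36.6% of all genes. The median log2 fold change of the 43 genes was -0.10 in WT and -0.09 in KO MSCs, and that of all genes tested was 0.00 in both. These shares lie close to those of all genes, so the number of members that moved is not a feature of the list. Differentially expressed genes (DEGs), which also change by more than 1 on the log2 scale, were 4 of 43 in WT MSCs (*Ezh1* and *Cbx7* higher, *Uhrf1* and *Hells* lower; 14.3% of all genes) and 9 of 43 in KO MSCs (*Ezh1*, *Cbx7* and *Uhrf2* higher, *Uhrf1*, *Hells*, *Suv39h2*, *Dnmt1*, *Mbd3* and *Suv39h1* lower; 22.9% of all genes). These are bulk samples, in which fewer cells of a type and less RNA per cell cannot be told apart.

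The members fell into groups by what induction did in the 2 genotypes, which share no library. A set of 16 was lower in both (*Dnmt1*, *Uhrf1*, *Hells*, *Mbd3*, *Ezh2*, *Eed*, *Suz12*, *Cbx1*, *Cbx3*, *Setdb1*, *Suv39h1*, *Suv39h2*, *Ehmt1*, *Trim28*, *Hdac2* and *Hdac4*), as were 27.4% of all genes. A set of 11 was higher in both (*Uhrf2*, *Tet2*, *Mbd2*, *Mbd4*, *Ezh1*, *Cbx6*, *Cbx7*, *Cbx8*, *Ehmt2*, *Hdac5* and *Hdac7*), as were 26.2% of all genes. Only *Rnf2* passed in opposite directions, lower in WT and higher in KO MSCs (1.19% of all genes). The reverse was found for 1.21% of all genes and for no member. *Dnmt3a*, *Dnmt3b*, *Tet1*, *Tet3* and *Cbx2* passed in neither genotype (18.7% of all genes). After quantile normalization *Dnmt3b* fell in WT (log2 fold change -0.38, adjusted p 0.032) and KO MSCs (-0.62, adjusted p 0.0041). *Tet1* then fell in WT MSCs (-0.69, adjusted p 0.012). In KO MSCs *Dnmt3b* also fell after median centring (-0.35, adjusted p 0.036) and without the variance trend (-0.27, adjusted p 0.024). Alternatives for *Dnmt3a* and *Tet3* are given below. Leaving out 1 library ended the WT call of *Uhrf1*, *Tdg*, *Eed*, *Setdb1*, *Setdb2*, *Suv39h1* and *Ehmt1* and the KO call of *Rnf2*, *Hdac3* and *Hdac9*.

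**Figure D2:**
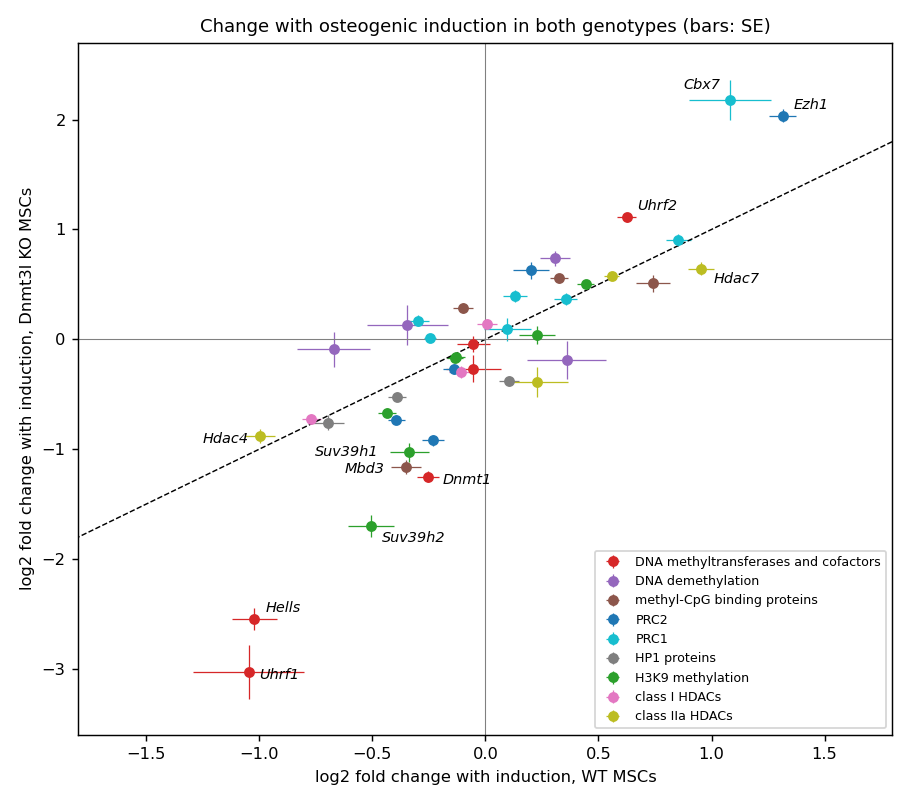
Each point is a gene, with its log2 fold change on induction in WT MSCs on the x axis and in *Dnmt3l* KO MSCs on the y axis, bars for the SE, colours for the role and a dashed line for equal change. *Uhrf1* (-1.05 and -3.03), *Hells* (-1.02 and -2.55) and *Suv39h2* (-0.51 and -1.70) lie below the line, and *Ezh1* (1.31 and 2.03) and *Cbx7* (1.08 and 2.18) lie above it.

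The promoters of these sets are shown because their members move together. RefSeq promoter windows on GRCm38.p6, each with 250 bases before and 50 after a start site, were held for 38 of the 43 genes (52 windows). The letters TTTNNCGC on either strand, a form of the site known to be bound by E2F factors, which drive genes of the cell cycle, stood in the window of 7 of the 16 genes lower in both genotypes, of 0 of 10 genes higher in both and of 1 of 12 others. They stood in 5.9% of all genes with a window and in 9.3% of the genes tested. The 7 genes were *Uhrf1*, *Hells*, *Suv39h1*, *Dnmt1*, *Suz12*, *Cbx3* and *Ezh2*, and *Cbx5* was the other gene. Each stretch below is 30 bases of GRCm38.p6 in the direction of the gene, with those letters or their reverse complement in capitals. The first 7 come from the falling genes, and the last 3, which end at the base before a start site and hold no such letters in the whole window, from genes that rose.
*Uhrf1* (chr17:56303270-56303299, + strand, upstream of the gene): gccccacttgcTTTCTCGCttcccgccaca
*Uhrf1* (chr17:56304117-56304146, + strand, before another start site, inside the gene in no exon of GENCODE): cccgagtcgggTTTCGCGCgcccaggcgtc
*Hells* (chr19:38930917-38930946, + strand, in an exon by GENCODE): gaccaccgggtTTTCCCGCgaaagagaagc
*Suv39h1* (chrX:8074407-8074436, - strand, inside the gene and inside *Gm14820* by GENCODE, in no exon): ggaaggccggcGCGGCAAAcgtgggggccg
*Dnmt1* (chr9:20952822-20952851, - strand, in an exon of a transcript that starts inside the gene): tttccgcgcGCGCGAAAAAgccggggtctc
*Suz12* (chr11:79992876-79992905, + strand, upstream of the gene): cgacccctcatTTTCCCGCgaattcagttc
*Cbx3* (chr6:51470437-51470466, + strand, inside the gene in no exon of GENCODE): tggagccccgcTTTGGCGCgctccgagacg
*Uhrf2* (chr19:30030483-30030512, + strand, upstream of the gene): tgcatctctataagtaaacagtgcgcgccg
*Ezh1* (chr11:101226464-101226493, - strand, upstream of the gene): gcgcacggaggggaggcgcggggcgtggcc
*Cbx7* (chr15:79932647-79932676, - strand, in an exon of GENCODE): tgagggaacactagggggtgtgcgcgcgtg

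The E-box letters CACGTG, the same on both strands, showed another split, with 0 of the 16 falling genes, 4 of the 10 rising genes (*Cbx6*, *Cbx8*, *Ehmt2* and *Hdac5*) and 4 of the 12 others, against 11.3% of the genes tested. Of the other letters searched on both strands, CCAAT stood in 9, 4 and 5 of these sets (42.4% of the genes tested), the NRF1 site in 5, 2 and 1 (10.4%), TTTGAA in 4, 1 and 2 (14.5%) and TTTAAA in 3, 0 and 3 (11.5%). These are matches of letters in a window, described without a test, and binding was not measured.

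The genotypes were compared next, in each state, to see which members differ between WT and *Dnmt3l* KO MSCs. In undifferentiated MSCs 15 of the 43 genes were higher in KO than in WT MSCs and 6 were lower, against 14.7% and 17.5% of all genes tested, and none was a DEG (1.70% of all genes). Of the members 22 did not pass, which does not show that they were equal. In differentiating MSCs 12 were higher and 9 lower in KO MSCs, against 17.8% and 22.9% of all genes, and 2, *Uhrf1* and *Hells*, were DEGs (3.30% of all genes). The median log2 fold change of the 43 genes was 0.05 in undifferentiated and 0.02 in differentiating MSCs, beside 0.00 and -0.01 for all genes. The counts in undifferentiated MSCs rest on both libraries of a group. Without 1 of the 4 undifferentiated libraries, 3 to 7 members were higher and 0 to 2 lower, and 18 of the 21 calls were lost without at least 1 library, all but those of *Dnmt1*, *Hdac5* and *Hdac7*. In differentiating MSCs 9 of the 21 calls were lost without 1 library and 14 in a fit of the 4 differentiating libraries alone, with adjusted p of 0.0504 to 0.103 in that fit.

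Of the 43 genes 8 were higher in undifferentiated and lower in differentiating KO MSCs, a pattern of 5.16% of all genes. They were *Dnmt1*, *Hells*, *Mbd3*, *Ezh2*, *Suz12*, *Cbx5*, *Suv39h1* and *Suv39h2*. Among genes higher in undifferentiated KO MSCs, this was 8 of 15 members, beside 791 of 2251 of all genes tested. The undifferentiated and the differentiating comparison share no library. A further 4 were higher in KO MSCs in both states (*Cbx2*, *Cbx8*, *Hdac5* and *Hdac7*; 2.90% of all genes), and 3 were lower in the undifferentiated and higher in the differentiating state (*Mbd1*, *Rnf2* and *Bmi1*; 4.97%). No member was lower in both, against 4.16% of all genes. The interaction, which tests whether induction changed a gene differently in the 2 genotypes, passed for 22 members, with 10 above 0 (the log2 fold change on induction was higher in KO than in WT MSCs) and 12 below 0 (it was lower), against 19.4% and 20.0% of all genes. *Cbx7*, *Uhrf1*, *Hells* and *Suv39h2* had an interaction beyond 1 on the log2 scale (6.17% of all genes). The interaction uses the same libraries as the comparisons above and adds no independent evidence to them. Leaving out 1 library ended it for 8 of the 22 (*Tet2*, *Mbd2*, *Jarid2*, *Ring1*, *Cbx7*, *Trim28*, *Hdac7* and *Hdac9*), with an adjusted p of 0.0522 to 0.0619 for *Cbx7*.

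**Figure D3:**
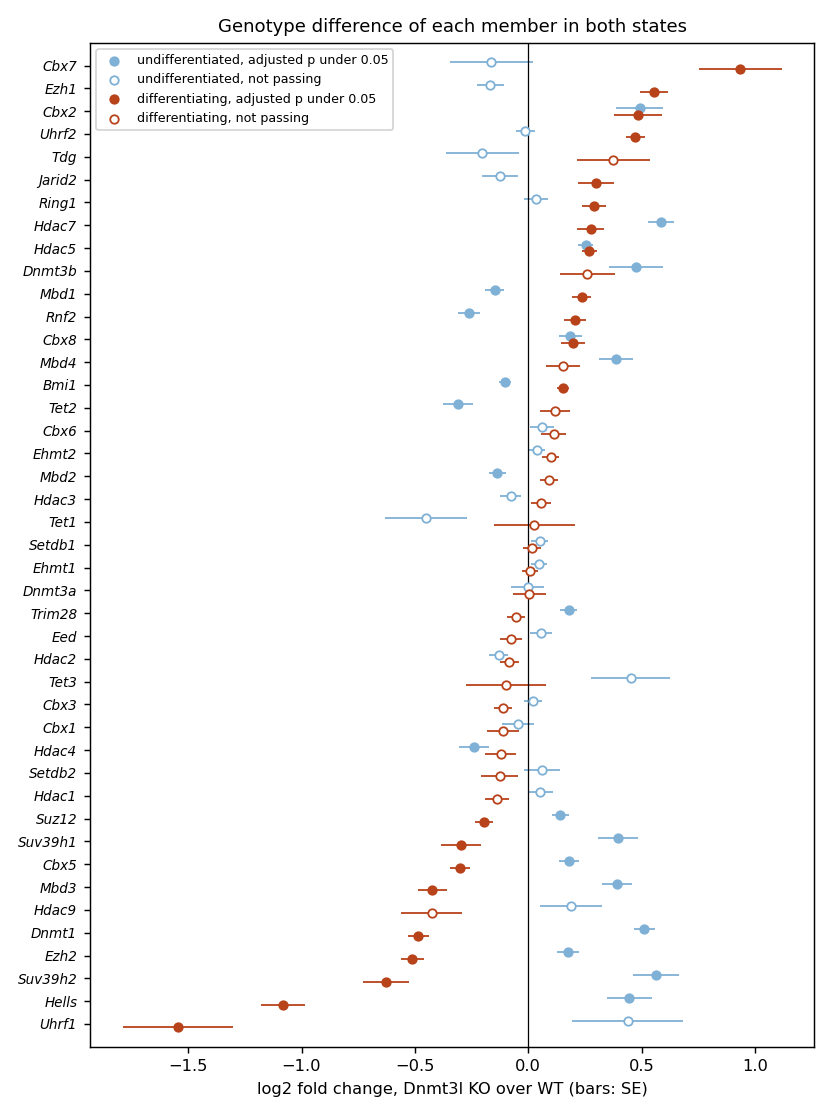
For each gene (rows, sorted by the differentiating value) the log2 fold change of *Dnmt3l* KO over WT MSCs is given for undifferentiated (light blue) and differentiating (dark orange) MSCs, with bars for the SE and filled points for an adjusted p under 0.05. At the bottom *Uhrf1*, *Hells*, *Suv39h2*, *Ezh2* and *Dnmt1* lie to the left in the differentiating state and to the right in the undifferentiated state, with the *Uhrf1* point of the undifferentiated state unfilled.

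Among the DNA methyltransferases and their cofactors, the maintenance genes moved and *Dnmt3a* did not pass in any comparison, although after quantile normalization it was lower on induction in both genotypes (log2 fold change -0.26 in WT and -0.21 in KO MSCs, adjusted p 0.018 and 0.037). *Dnmt1*, the maintenance enzyme (chr9:20907209-20959888), was at 15.3 and 14.7 RPKM in undifferentiated WT, 21.4 and 21.3 in undifferentiated KO, 12.3 and 12.8 in differentiating WT and 9.28 and 8.602 in differentiating KO MSCs. The 4 groups did not overlap, with undifferentiated KO libraries highest and differentiating KO libraries lowest. Its log2 fold change on induction was -0.25 (SE 0.05, adjusted p 0.0043) in WT and -1.25 (SE 0.05, adjusted p 3.4e-06) in KO MSCs, and the interaction was -0.997 (SE 0.07, adjusted p 5.9e-04). The ratio of *Dnmt1* to *Dnmt3a* within a library was 5.56 and 5.47 in undifferentiated WT, 7.63 and 8.18 in undifferentiated KO, 4.65 and 4.96 in differentiating WT and 3.76 and 3.10 in differentiating KO MSCs. So the balance of maintenance to de novo enzyme RNA was highest and lowest in the 2 KO groups.

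*Uhrf1*, which brings DNMT1 to hemimethylated DNA (chr17:56303321-56323486), was at 10.9 and 11.04 RPKM in undifferentiated WT, 14.8 and 15.0 in undifferentiated KO, 4.85 and 5.70 in differentiating WT and 2.33 and 1.29 in differentiating KO MSCs. All 4 groups were apart, although the difference between genotypes in undifferentiated MSCs did not pass (log2 fold change 0.44, SE 0.24, adjusted p 0.22). With the same value it did pass in a fit of the 4 undifferentiated libraries alone (adjusted p 0.0079) and without replicate 1 or replicate 2 of differentiating KO MSCs (adjusted p 0.0173 and 0.0172). In differentiating MSCs *Uhrf1* was lower in KO than in WT (log2 fold change -1.54, SE 0.24, adjusted p 0.0052). That call was lost in a fit of the 4 differentiating libraries alone (adjusted p 0.0541). The fall of *Uhrf1* on induction was 8.24-fold by group means in KO MSCs (log2 fold change -3.03, SE 0.24, adjusted p 6.6e-05). In WT MSCs it was 2.08-fold (log2 fold change -1.05, adjusted p 0.010). Without replicate 2 of undifferentiated WT or replicate 1 of differentiating WT MSCs, the WT fall was -1.04 to -0.93 with an adjusted p of 0.053 to 0.065. *Hells*, the chromatin remodeller that DNA methylation of repeats needs (chr19:38930915-38971051), followed the same order of groups at 8.57 and 9.15, 11.8 and 12.4, 4.04 and 4.60, and 2.16 and 1.82 RPKM. In differentiating MSCs it was 2.17-fold lower in KO than in WT (log2 fold change -1.08, SE 0.10, adjusted p 0.0012). In the undifferentiated state it was higher in KO MSCs (log2 fold change 0.44, SE 0.10, adjusted p 0.020), a call that was lost without any 1 of the 4 undifferentiated libraries (adjusted p 0.0703 to 0.107).

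*Uhrf2*, the paralogue of *Uhrf1* that does not replace it in maintenance (chr19:30030513-30093722), moved the other way. It stood at 24.7 and 25.2 RPKM in undifferentiated WT, 25.2 and 24.2 in undifferentiated KO, 39.5 and 37.5 in differentiating WT and 52.2 and 54.6 in differentiating KO MSCs. The undifferentiated groups overlapped and the differentiating KO libraries were highest. The log2 fold change on induction was 0.62 in WT and 1.11 in KO MSCs (SE 0.04, adjusted p 5.1e-05 and 3.1e-06), and the interaction was 0.49 (SE 0.06, adjusted p 0.0023). Within a library, *Uhrf1* was 0.442 and 0.439 times *Uhrf2* in undifferentiated WT and 0.588 and 0.619 times in undifferentiated KO MSCs. In differentiating MSCs it was 0.123 and 0.152 times *Uhrf2* in WT and 0.0445 and 0.0236 times in KO.

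*Dnmt3a*, a de novo enzyme (chr12:3806007-3914443), ranged from 2.47 to 2.81 RPKM over all libraries and its groups overlapped between genotypes. The log2 fold change of KO over WT was 0.00 in both states (SE 0.07, adjusted p 0.99 and 0.97). GENCODE names 1 pseudogene of it, with which reads could have been shared. *Dnmt3b*, the other de novo enzyme (chr2:153649450-153687730), was at 0.342 and 0.342 RPKM in undifferentiated WT, 0.544 and 0.486 in undifferentiated KO, 0.339 and 0.314 in differentiating WT and 0.441 and 0.381 in differentiating KO MSCs. KO libraries were above WT libraries in both states, and the difference passed in undifferentiated MSCs (log2 fold change 0.48, SE 0.12, adjusted p 0.030) but not in differentiating MSCs (0.26, adjusted p 0.14). Without any 1 of the 4 undifferentiated libraries the first call was lost (adjusted p 0.0634 to 0.113).

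**Figure D4:**
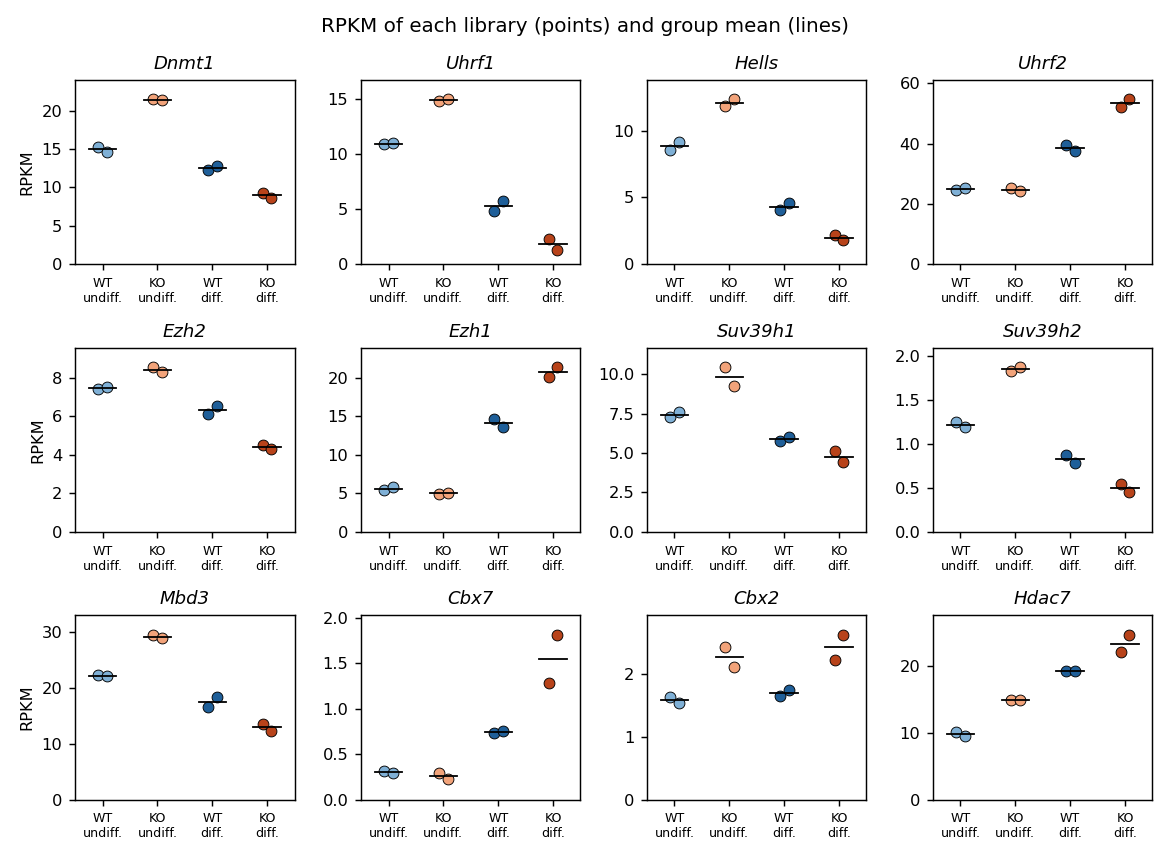
Points give the RPKM of each library and lines the mean of the 2 libraries, for 12 members in undifferentiated and differentiating WT and *Dnmt3l* KO MSCs, on linear axes that start at 0. In *Dnmt1*, *Uhrf1*, *Hells*, *Ezh2*, *Suv39h1*, *Suv39h2* and *Mbd3* the undifferentiated KO libraries are highest and the differentiating KO libraries lowest, and in *Uhrf2*, *Ezh1* and *Cbx7* the differentiating KO libraries are highest.

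Of the genes of DNA demethylation, *Tet2* and *Tdg* passed in some comparisons and *Tet1* and *Tet3* in none. The TET enzymes oxidise methylcytosine and TDG cuts out the oxidised base. *Tet2* (chr3:133463679-133545139) was at 2.84 and 2.54 RPKM in undifferentiated WT, 2.11 and 2.18 in undifferentiated KO, 3.37 and 3.32 in differentiating WT and 3.54 and 3.74 in differentiating KO MSCs. Its libraries were lowest in undifferentiated KO and highest in differentiating KO MSCs. It rose on induction in KO MSCs (log2 fold change 0.74, SE 0.07, adjusted p 1.1e-04) and in WT MSCs (0.31, adjusted p 0.0077), the latter with an adjusted p of 0.141 and a value of 0.12 after quantile normalization. The difference between genotypes in the undifferentiated state (-0.31, adjusted p 0.018) was lost without replicate 1 of undifferentiated WT or either replicate of undifferentiated KO MSCs (adjusted p 0.0691 to 0.0939).

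*Tet1* (chr10:62804570-62908996) was at 0.281 and 0.258 RPKM in undifferentiated WT, 0.168 and 0.173 in undifferentiated KO, 0.228 and 0.158 in differentiating WT and 0.173 and 0.222 in differentiating KO MSCs. Its undifferentiated WT libraries were above the KO ones, but the difference did not pass (log2 fold change -0.45, SE 0.18, adjusted p 0.11), except in a fit of the 4 undifferentiated libraries alone (adjusted p 0.028). *Tet3* (chr6:83362373-83459084) was at 1.43 and 1.15, 1.75 and 1.83, 1.74 and 1.61, and 1.30 and 1.86 RPKM in the same order, and passed no comparison, with differentiating groups that overlapped. Without replicate 1 or replicate 2 of differentiating KO MSCs it was higher in undifferentiated KO than WT MSCs (0.45, adjusted p 0.0401 and 0.0406) and rose on induction in WT MSCs (0.36, adjusted p 0.0459 and 0.0465), and without replicate 2 it also fell on induction in KO MSCs (-0.43, adjusted p 0.0483), with an interaction of -0.79 (adjusted p 0.0318). *Tdg* ranged from 1.53 to 3.15 RPKM and fell on induction in WT MSCs (log2 fold change -0.67, SE 0.16, adjusted p 0.011). That call was lost without replicate 1 of undifferentiated WT or replicate 2 of differentiating WT MSCs (log2 fold change -0.53 to -0.48). GENCODE names 1 pseudogene of *Tdg*.

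The methyl-CpG binding proteins split. *Mbd3*, a subunit of the NuRD deacetylase complex that has lost most of its affinity for methylated DNA (chr10:80392539-80399550), was at 22.3 and 22.005 RPKM in undifferentiated WT, 29.4 and 28.8 in undifferentiated KO, 16.5 and 18.2 in differentiating WT and 13.6 and 12.3 in differentiating KO MSCs. The groups did not overlap. It fell on induction by 1.16 on the log2 scale in KO MSCs (SE 0.07, adjusted p 1.4e-05) and by 0.35 in WT MSCs (adjusted p 0.0040). *Mbd2*, the NuRD subunit that binds methylated DNA, was at 37.9 and 40.0, 35.1 and 35.8, 48.0 and 49.7, and 52.7 and 51.4 RPKM in undifferentiated WT, undifferentiated KO, differentiating WT and differentiating KO MSCs. It rose on induction in both genotypes (log2 fold change 0.33 and 0.55, adjusted p 5.3e-04 and 3.2e-05). The paralogues thus moved in opposite directions in both genotypes.

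*Mbd4*, a DNA glycosylase that removes thymine opposite guanine (chr6:115840697-115853371), was at 1.17 and 1.21 RPKM in undifferentiated WT, 1.60 and 1.57 in undifferentiated KO, 2.18 and 1.94 in differentiating WT and 2.34 and 2.25 in differentiating KO MSCs. Differentiating libraries were above undifferentiated ones in both genotypes (log2 fold change 0.74 and 0.51, SE 0.07, adjusted p 2.8e-04 and 0.0010). *Mbd1*, which binds methylated CpG sites, ranged from 8.94 to 11.3 RPKM. It was higher in differentiating KO than WT MSCs (0.23 on the log2 scale, SE 0.04, adjusted p 0.0087) and lower in undifferentiated KO MSCs (-0.15, adjusted p 0.046). The second call was lost under 10 alternatives, 4 of them with all libraries (adjusted p 0.0557 to 0.109), and the first with an adjusted p of 0.0514 without replicate 2 of differentiating WT MSCs.

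In PRC2 the catalytic paralogues changed places. *Ezh1*, the methyltransferase subunit known from non-dividing cells (chr11:101191115-101226463), was at 5.38 and 5.86 RPKM in undifferentiated WT, 4.90 and 5.08 in undifferentiated KO, 14.6 and 13.6 in differentiating WT and 20.2 and 21.4 in differentiating KO MSCs. It rose 2.51-fold by group means in WT MSCs (log2 fold change 1.31, SE 0.06, adjusted p 1.2e-05) and 4.16-fold in KO MSCs (2.03, SE 0.06, adjusted p 1.5e-06). In differentiating MSCs it was higher in KO than in WT (0.55, adjusted p 0.0018), while the undifferentiated groups did not pass (-0.17, adjusted p 0.085).

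*Ezh2*, the subunit known from dividing cells (chr6:47530139-47595341), was at 7.39 and 7.503, 8.53 and 8.29, 6.12 and 6.53, and 4.53 and 4.28 RPKM in undifferentiated WT, undifferentiated KO, differentiating WT and differentiating KO MSCs. The 4 groups were apart. The fall on induction was 0.23 in WT (adjusted p 0.0070) and 0.92 in KO MSCs (adjusted p 1.2e-05), by log2 fold changes of -0.23 and -0.92 (SE 0.05). It was lower in differentiating KO than WT MSCs (-0.51, adjusted p 0.0013). The higher level in undifferentiated KO MSCs (0.17, adjusted p 0.042) was lost without any 1 of the 4 undifferentiated libraries (adjusted p 0.114 to 0.176) and under 5 alternatives with all libraries. Within a library *Ezh2* was 1.37 and 1.28 times *Ezh1* in undifferentiated WT and 1.74 and 1.63 times in undifferentiated KO MSCs, but 0.419 and 0.479 times in differentiating WT and 0.225 and 0.201 times in differentiating KO MSCs. The ratio was thus above 1 in every undifferentiated and under 1 in every differentiating library.

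On induction in KO MSCs the core subunits without catalytic activity changed less than *Ezh1* and *Ezh2*. In WT MSCs *Suz12* fell more than *Ezh2*. *Suz12* went from 10.8 and 10.6 to 8.25 and 7.98 RPKM in WT and from 12.1 and 11.5 to 6.999 and 7.15 RPKM in KO MSCs, a fall in both (log2 fold change -0.39 and -0.73, SE 0.04, adjusted p 2.6e-04 and 1.1e-05). *Eed*, which reads the mark that PRC2 sets, ranged from 15.4 to 19.3 RPKM, with log2 fold changes on induction of -0.14 in WT (adjusted p 0.044) and -0.27 in KO MSCs (adjusted p 0.0026). The WT call of *Eed* was lost under 9 alternatives, 5 of which left out a library (adjusted p 0.0755 to 0.203). *Jarid2*, an accessory subunit that recruits PRC2, ranged from 2.01 to 3.52 RPKM and rose on induction in KO MSCs (0.63, SE 0.08, adjusted p 5.1e-04), while in WT MSCs it did not pass (0.20, adjusted p 0.064), except in a fit of the 4 WT libraries alone and without either undifferentiated KO library (adjusted p 0.0361 to 0.046).

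PRC1 members were higher in differentiating KO MSCs where they passed. Of 7 members 6 (*Ring1*, *Rnf2*, *Bmi1*, *Cbx2*, *Cbx7* and *Cbx8*) were higher than in differentiating WT MSCs and 0 were lower, against 17.8% and 22.9% of all genes tested, with a median log2 fold change of 0.21, and *Cbx6* did not pass (0.11, adjusted p 0.15) except without replicate 1 of differentiating KO MSCs (0.19, adjusted p 0.016). In a fit of only the 4 differentiating libraries none of the 6 passed (adjusted p 0.0504 to 0.103). *Cbx7*, a chromodomain subunit that reads the PRC2 mark (chr15:79915807-79971119), was at 0.310 and 0.290 RPKM in undifferentiated WT, 0.293 and 0.225 in undifferentiated KO, 0.736 and 0.758 in differentiating WT and 1.28 and 1.81 in differentiating KO MSCs. The undifferentiated groups overlapped and the differentiating KO libraries were highest and furthest apart. On induction it rose by a log2 fold change of 1.08 in WT (SE 0.18, adjusted p 0.0026) and 2.18 in KO MSCs (SE 0.18, adjusted p 7.5e-05). The difference between genotypes in differentiating MSCs (0.94, adjusted p 0.010) was lost without either differentiating WT library (adjusted p 0.051 and 0.0552).

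*Cbx2*, another of these subunits (chr11:119022962-119031270), was at 1.63 and 1.53 RPKM in undifferentiated WT, 2.43 and 2.101 in undifferentiated KO, 1.65 and 1.74 in differentiating WT and 2.22 and 2.61 in differentiating KO MSCs. KO libraries were above WT libraries in both states (log2 fold change 0.49 and 0.48, SE 0.11, adjusted p 0.018 and 0.015) and induction made no difference that passed. Each of these calls was lost without 1 of 3 libraries (adjusted p 0.0606 to 0.0952 undifferentiated, 0.0627 to 0.0742 differentiating): either WT library of the state, with replicate 1 of undifferentiated KO or replicate 2 of differentiating KO MSCs. The ratio of *Cbx2* to *Cbx7* within a library fell from 5.25 and 5.29 to 2.24 and 2.30 on induction in WT MSCs and from 8.29 and 9.35 to 1.74 and 1.45 in KO MSCs.

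*Cbx6* rose from 7.62 and 7.51 to 13.8 and 13.7 RPKM in WT and from 8.02 and 7.76 to 14.1 and 15.7 RPKM in KO MSCs (log2 fold change 0.85 and 0.91, SE 0.05, adjusted p 4.4e-05 and 1.9e-05). It overlaps *Npcd* on the same strand, so its reads may be split between them. *Cbx8* ranged from 4.36 to 6.75 RPKM and rose in both genotypes (0.36 and 0.37, adjusted p 0.0014 and 8.6e-04). Of the ubiquitin ligase core, *Rnf2*, which encodes RING1B, was at 20.1 and 21.1 RPKM in undifferentiated WT, 17.7 and 16.7 in undifferentiated KO, 17.1 and 16.3 in differentiating WT and 18.8 and 19.8 in differentiating KO MSCs. It fell on induction in WT MSCs (-0.30, SE 0.05, adjusted p 0.0025) and rose in KO MSCs (0.17, adjusted p 0.021), and the interaction was 0.47 (SE 0.07, adjusted p 0.0044). The rise in KO MSCs was lost without replicate 2 of either KO group (0.13, adjusted p 0.0952 and 0.114) and after median centring (0.09, adjusted p 0.141). *Bmi1*, its PCGF partner, went from 23.4 and 23.1 to 19.7 and 19.4 RPKM in WT MSCs (-0.25, SE 0.03, adjusted p 3.8e-04) and from 21.7 and 21.5 to 21.8 and 21.8 in KO MSCs (0.01, adjusted p 0.77). *Ring1*, the paralogue of *Rnf2*, ranged from 6.33 to 8.67 RPKM and was highest in differentiating KO MSCs.

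**Figure D5:**
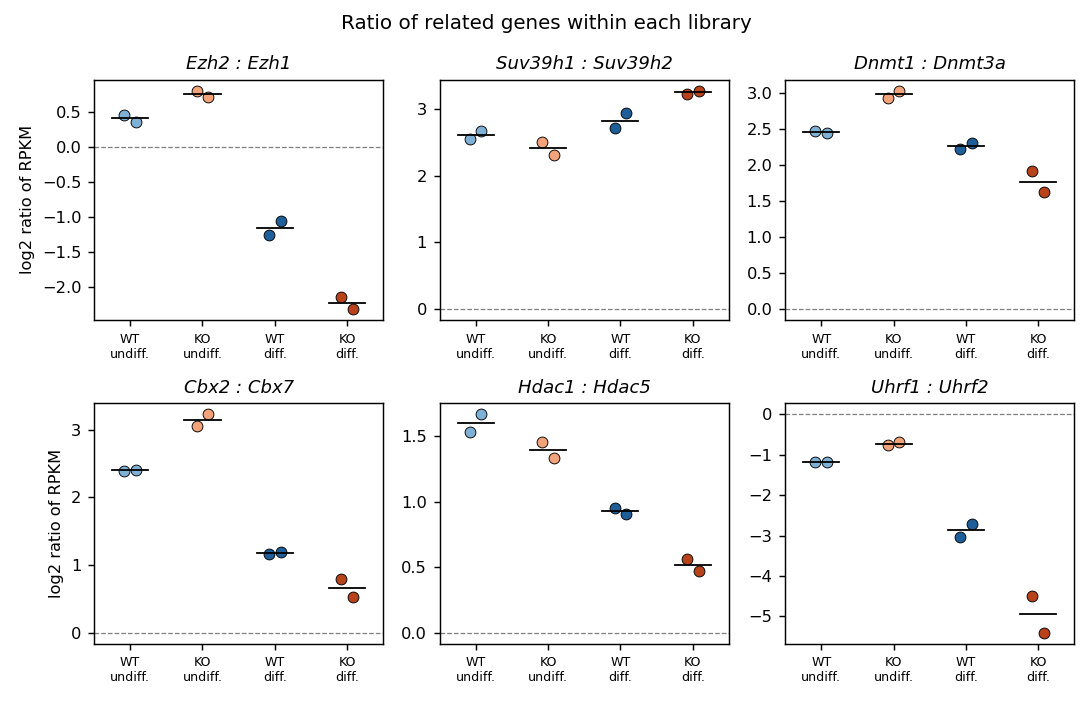
Points give the log2 ratio of 2 related genes within each library, lines the mean of the 2 libraries, and the dashed line equal RPKM, for undifferentiated and differentiating WT and *Dnmt3l* KO MSCs. *Ezh2* to *Ezh1* crosses the dashed line with induction in both genotypes, and all ratios but *Suv39h1* to *Suv39h2* are lowest in differentiating KO MSCs.

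The HP1 genes fell on induction where they passed. *Cbx1*, which encodes HP1β, went from 20.3 and 22.8 to 12.6 and 14.0 RPKM in WT and from 20.9 and 20.7 to 12.0 and 12.5 RPKM in KO MSCs on induction (log2 fold change -0.70 and -0.76, SE 0.07, adjusted p 3.0e-04 and 1.3e-04). *Cbx3* went from 113 and 116 to 88.3 and 86.5 RPKM in WT and from 119 and 114 to 83.1 and 78.8 RPKM in KO MSCs (-0.39 and -0.52, SE 0.04, adjusted p 3.1e-04 and 5.3e-05). GENCODE names 8 pseudogenes of *Cbx3*, so its level is uncertain. Neither gene passed between genotypes in either state, although *Cbx3* was lower in differentiating KO MSCs after median centring (-0.11, adjusted p 0.046) and without replicate 1 of that group (-0.15, adjusted p 0.036). *Cbx5*, which encodes HP1α, was at 24.5 and 25.3 RPKM in undifferentiated WT, 29.0 and 27.5 in undifferentiated KO, 26.8 and 26.7 in differentiating WT and 22.4 and 21.0 in differentiating KO MSCs. It fell on induction in KO MSCs (-0.38, SE 0.04, adjusted p 3.9e-04) while in WT MSCs it did not pass (0.10, adjusted p 0.087; 0.0092 to 0.047 under 4 alternatives that gave a rise), with an interaction of -0.48 (SE 0.06, adjusted p 0.0030).

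Among the H3K9 enzymes the SUV39 pair moved most on induction in KO MSCs. In WT MSCs *Suv39h1* changed less than *Ehmt2* and *Trim28*. *Suv39h1*, which trimethylates H3K9 in heterochromatin around centromeres (chrX:8061171-8074760), was at 7.30 and 7.58 RPKM in undifferentiated WT, 10.4 and 9.25 in undifferentiated KO, 5.74 and 5.99 in differentiating WT and 5.11 and 4.43 in differentiating KO MSCs. It fell by 1.0302 on the log2 scale in KO MSCs (SE 0.09, adjusted p 8.0e-05) and by 0.34 in WT MSCs (adjusted p 0.015), the latter lost without replicate 2 of undifferentiated WT or replicate 1 of differentiating WT MSCs (adjusted p 0.0787 and 0.0809). Its lower level in differentiating KO than WT MSCs (-0.30, adjusted p 0.038) was lost under 9 alternatives (adjusted p 0.0511 to 0.165). *Suv39h2*, its paralogue (chr2:3455815-3475031), was at 1.25 and 1.19, 1.83 and 1.87, 0.876 and 0.786, and 0.549 and 0.458 RPKM in undifferentiated WT, undifferentiated KO, differentiating WT and differentiating KO MSCs. The 4 groups were apart. It fell 3.68-fold by group means in KO MSCs (log2 fold change -1.70, SE 0.10, adjusted p 1.9e-05) and 1.47-fold in WT MSCs (-0.51, adjusted p 0.0057), with an interaction of -1.19 (SE 0.14, adjusted p 0.0023).

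The other members of this group changed less than the SUV39 pair on induction in KO MSCs. *Trim28*, the scaffold that KRAB zinc finger proteins bind (chr7:12999114-13031035), was at 59.3 and 60.6 RPKM in undifferentiated WT, 69.6 and 66.0 in undifferentiated KO, 44.0 and 44.6 in differentiating WT and 43.6 and 41.8 in differentiating KO MSCs. It fell in both genotypes (log2 fold change -0.44 and -0.67, SE 0.04, adjusted p 1.6e-04 and 1.5e-05). *Setdb1*, the methyltransferase that TRIM28 recruits (chr3:95323525-95357202), was at 8.81 and 9.15, 9.30 and 9.29, 8.36 and 8.05, and 8.18 and 8.42 RPKM in the same order, with changes on induction of -0.13 in WT (adjusted p 0.027) and -0.16 in KO MSCs (adjusted p 0.0094). The WT call of *Setdb1* was lost without 1 of 4 libraries (adjusted p 0.0511 to 0.13), which were replicate 2 of undifferentiated WT and of differentiating WT and both of undifferentiated KO MSCs. *Ehmt2*, which encodes the dimethylating enzyme G9a, rose from 38.1 and 39.5 to 52.2 and 53.5 RPKM in WT and from 40.5 and 39.2 to 57.6 and 55.5 RPKM in KO MSCs (0.44 and 0.50, SE 0.04, adjusted p 1.2e-04 and 4.1e-05). Its partner in the same complex, *Ehmt1*, ranged from 10.4 to 12.1 RPKM and fell slightly in both (-0.13 and -0.17, adjusted p 0.016 and 0.0045). *Setdb2* ranged from 4.02 to 5.02 RPKM and passed only in WT MSCs on induction (0.23, adjusted p 0.046), a call that 12 alternatives ended.

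The class I deacetylases among the members, *Hdac1*, *Hdac2* and *Hdac3*, passed no comparison between genotypes with all libraries in the model described. HDAC1 and HDAC2 sit in the Sin3, NuRD and CoREST complexes. *Hdac8*, of the same class but not a member, is counted below with the further HDACs. Its interaction was 0.57 (SE 0.09, adjusted p 0.0058). *Hdac2* was lower in undifferentiated KO MSCs under 4 alternatives (adjusted p 0.0219 to 0.0455), 2 of which left out a differentiating KO library, and *Hdac3* higher in differentiating KO MSCs after quantile normalization (0.11, adjusted p 0.022). *Hdac1* (chr4:129516104-129542713) was at 27.5 and 29.9 RPKM in undifferentiated WT, 30.4 and 29.0 in undifferentiated KO, 26.6 and 26.5 in differentiating WT and 24.9 and 23.4 in differentiating KO MSCs, and fell in KO MSCs (log2 fold change -0.30, SE 0.05, adjusted p 0.0028). *Hdac2*, its close paralogue, fell from 70.0 and 73.5 to 41.4 and 42.6 RPKM in WT and from 66.7 and 64.4 to 40.6 and 38.6 RPKM in KO MSCs (-0.77 and -0.73, SE 0.04, adjusted p 2.3e-05 and 1.6e-05). *Hdac3*, the enzyme of the NCoR complex, ranged from 38.6 to 44.7 RPKM and passed only on induction in KO MSCs (0.14, adjusted p 0.028), where leaving out 1 of 3 libraries ended the call (adjusted p 0.0728 to 0.121). Those libraries were both of undifferentiated KO and replicate 1 of differentiating KO MSCs.

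The class IIa deacetylases, which repress MEF2 factors and in bone cells RUNX2, went in different directions. *Hdac4*, known to restrain RUNX2 (chr1:91928779-92195699), fell from 10.1 and 9.14 to 4.84 and 4.71 RPKM in WT and from 8.11 and 8.18 to 4.18 and 4.59 RPKM in KO MSCs (log2 fold change -0.996 and -0.881, SE 0.07, adjusted p 5.2e-05 and 4.9e-05). *Hdac5* rose from 9.50 and 9.41 to 13.8 and 14.2 RPKM in WT and from 11.1 and 11.5 to 16.9 and 16.8 RPKM in KO MSCs (0.56 and 0.58, SE 0.03, adjusted p 3.4e-05 and 1.6e-05). A microRNA gene, *Mir8101*, overlaps it on the same strand. *Hdac7* (chr15:97792664-97844502) was at 10.2 and 9.60 RPKM in undifferentiated WT, 14.9 and 14.9 in undifferentiated KO, 19.3 and 19.2 in differentiating WT and 22.1 and 24.6 in differentiating KO MSCs.

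In *Hdac5* and *Hdac7* the KO libraries were above the WT libraries in both states. The log2 fold change of KO over WT was 0.59 for *Hdac7* in undifferentiated (SE 0.06, adjusted p 0.0016) and 0.28 in differentiating MSCs (adjusted p 0.013), and 0.25 and 0.27 for *Hdac5* (SE 0.03, adjusted p 0.0039 and 0.0025). The differentiating call of *Hdac7* was lost without either differentiating WT library (adjusted p 0.0586 and 0.0739). The *Hdac5* calls and the undifferentiated call of *Hdac7* held under every alternative run. *Hdac9* ranged from 0.274 to 0.477 RPKM, and its fall on induction in KO MSCs (-0.38, adjusted p 0.043) was lost under 6 alternatives (adjusted p 0.0552 to 0.126).

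Genes of proliferation and DNA replication were read beside these, since several members are known to be transcribed in dividing cells. Of 20 such genes 15 were higher and 0 lower in undifferentiated KO than WT MSCs (median log2 fold change 0.51), against 14.7% and 17.5% of all genes. All 20 were lower in differentiating KO than WT MSCs (median -0.92), against 22.9% of all genes. On induction in WT MSCs 17 fell and 1, *Rrm2*, rose (median -0.64), against 32.8% and 31.6% of all genes. In KO MSCs all 20 fell (median -2.08), against 36.6% of all genes. The summed RPKM of the 20 genes was 415 and 424 in undifferentiated WT, 582 and 579 in undifferentiated KO, 340 and 365 in differentiating WT and 210 and 176 in differentiating KO MSCs. *Mki67*, the classical marker of cycling cells, was at 12.8 and 12.3, 19.0 and 19.1, 7.36 and 7.52, and 2.74 and 1.84 RPKM in that order. The order of the 4 groups, and the lower of the 2 differentiating KO libraries, were those of *Dnmt1*, *Uhrf1*, *Hells*, *Ezh2*, *Suv39h1*, *Suv39h2* and *Mbd3*. The part of proliferation in the values of these genes was not tested.

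Leukocyte and lineage markers also moved with the groups. Of 10 leukocyte markers tested, 2 were higher and 5 lower in undifferentiated KO MSCs (14.7% and 17.5% of all genes). In differentiating KO MSCs 1 was higher and 8 were lower (17.8% and 22.9% of all genes). Of 8 osteoblast markers 0 were higher and 6 lower in differentiating KO than WT MSCs, beside the same shares. Their summed RPKM was 1492 and 1385 in differentiating WT and 828 and 707 in differentiating KO MSCs. Of 7 adipogenic markers 6 rose on induction in WT and 7 in KO MSCs (31.6% and 36.4% of all genes). Between differentiating genotypes 2 were higher and 0 lower in KO MSCs (17.8% and 22.9% of all genes). The part of other cells or lineages in the values of the members was not tested.

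Other genes of the same pathways were counted in the same fit. The shares of all genes tested, higher and lower, were 14.7% and 17.5% in undifferentiated KO against WT MSCs, 17.8% and 22.9% in differentiating KO against WT MSCs, 31.6% and 32.8% on induction in WT MSCs and 36.4% and 36.6% on induction in KO MSCs. Beside these, of 24 genes of DNA methylation and base excision, 6 were higher and 5 lower in undifferentiated KO MSCs, 7 and 8 in differentiating KO MSCs, and on induction 7 rose and 16 fell in WT and 8 rose and 15 fell in KO MSCs. *Neil3*, a glycosylase of base excision, went from 1.57 and 1.56 to 0.712 and 0.834 RPKM in WT and from 2.49 and 2.13 to 0.358 and 0.197 RPKM in KO MSCs, and *Ung*, the uracil glycosylase, fell by 1.86 on the log2 scale in KO MSCs (SE 0.12, adjusted p 2.4e-05). *Gadd45a*, a stress gene tied to DNA repair and demethylation, was at 21.8 and 20.8 RPKM in undifferentiated WT, 9.34 and 10.0 in undifferentiated KO, 4.38 and 3.69 in differentiating WT and 5.52 and 5.85 in differentiating KO MSCs. It was lower in undifferentiated KO than WT MSCs (log2 fold change -1.13, SE 0.09, adjusted p 7.3e-04). *Idh1*, whose product supplies the α-ketoglutarate that TET enzymes need, rose from 68.4 and 70.0 to 149.98 and 142 RPKM in WT and from 62.5 and 62.4 to 195 and 196 RPKM in KO MSCs.

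Of 25 Polycomb accessory subunits and opposing enzymes, 6 were higher and 2 lower in undifferentiated KO (14.7% and 17.5% of all genes) and 5 and 5 in differentiating KO MSCs (17.8% and 22.9%), while on induction 6 rose and 12 fell in WT (31.6% and 32.8%) and 7 rose and 12 fell in KO MSCs (36.4% and 36.6%). The PCL subunits of PRC2 parted: *Phf19* was at 0.925 and 0.919 RPKM in undifferentiated WT, 1.65 and 1.55 in undifferentiated KO, 0.791 and 0.779 in differentiating WT and 0.420 and 0.342 in differentiating KO MSCs. *Phf1* was at 4.30 and 4.18, 4.21 and 4.23, 6.18 and 6.17, and 8.87 and 8.68 RPKM in that order, highest where *Phf19* was lowest. In differentiating MSCs the log2 fold change of KO over WT was -0.88 for *Phf19* (SE 0.10, adjusted p 0.0022) and 0.50 for *Phf1* (SE 0.04, adjusted p 8.1e-04).

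Of 24 partners of H3K9 and H4K20 methylation and demethylases, 5 were higher and 7 lower in undifferentiated KO (14.7% and 17.5% of all genes), 6 and 7 in differentiating KO MSCs (17.8% and 22.9%), and on induction 5 rose and 14 fell in WT (31.6% and 32.8%) and 9 rose and 10 fell in KO MSCs (36.4% and 36.6%). *Lmnb1*, the lamin B1 of the nuclear envelope that holds heterochromatin, fell by 2.101 on the log2 scale on induction in KO MSCs (SE 0.11, adjusted p 1.1e-05) and by 0.48 in WT MSCs (adjusted p 0.0096). *Chaf1b*, a subunit of the histone chaperone of replication, fell by 1.83 in KO (SE 0.08, adjusted p 5.4e-06) and 0.55 in WT MSCs (adjusted p 0.0014). Of 30 partners of HDAC complexes and further HDACs, 5 were higher and 6 lower in undifferentiated KO, 4 and 4 in differentiating KO MSCs, and on induction 10 rose and 9 fell in WT and 11 rose and 10 fell in KO MSCs, to be read against the same shares of all genes. *Hdac11*, the class IV deacetylase, rose by 1.23 in WT and 2.33 in KO MSCs on the log2 scale (SE 0.11, adjusted p 1.9e-04 and 7.6e-06).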

How the data were processed

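RNA was measured by RNA sequencing in 8 libraries (4 groups of 2 libraries) of mouse MSCs. Per the labels and the submitters' processing notes, ribosomal RNA was removed, stranded libraries were sequenced, reads were aligned to mm10 with TopHat2 (version 2.1.0), and the authors computed the deposited RPKM per gene and library with Cuffdiff of Cufflinks (version 2.2.1). Every value column was matched to a sample by its name, and 0 columns were left without one. The members and the other gene lists were chosen with earlier results of these data known.

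Here, log2(RPKM + 0.1) of the 15342 genes that averaged 0.1 RPKM or more (4324 of 24346 genes were at 0 in all libraries) was fitted with limma (version 3.58.1, R 4.3.3), as 4 group means with a variance trend (4 residual and 1.98 prior degrees of freedom), and p-values were adjusted by the Benjamini-Hochberg method over all genes tested. The tests are two-sided. Genes were called at an adjusted p under 0.05, and DEGs also at an absolute log2 fold change above 1. Folds by group means are ratios of mean RPKM. All libraries share one estimate of the spread per gene, although replicates differed most in differentiating KO MSCs (mean chi-square 19.04 per gene, 2.56 in undifferentiated KO MSCs). The p-values of comparisons with differentiating KO MSCs may thus be too small, and those of the others too large. The script was tested on simulated data with the same spread in every group, which does not cover this. RPKM values gave whole reads for 81.1% of the low values examined (within 0.1 read, where 20% would by chance without a fit). The depth and the length subtracted were fitted to these same values, so 20% is not the level to expect after the fit. The deposited values are RPKM and not counts, and no count test was run. The depth given is scaled and estimated from single-transcript genes. Per-library values are given for up to 10 members per comparison, by the largest log2 fold change among passing members whose groups did not overlap, and always for *Dnmt1*, *Dnmt3a*, *Dnmt3b*, *Uhrf1*, *Tet1*, *Tet2*, *Tet3*, *Trim28*, *Setdb1*, *Hdac1* and *Ezh2*, with others added to show a group whole. Positions are those of GENCODE on mm10 and promoter windows those of RefSeq on GRCm38.p6, matched by symbol. Alternatives were other pseudocounts, no expression minimum, quantile normalization, median centring, no variance trend, a replicate block, a fit limited to the groups compared, and leaving out each library in turn.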

Additional observations from a re-analysis of the deposited data

Results flagged for a closer look

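A difference between WT and *Dnmt3l* KO MSCs in the response to osteogenic induction, by the interaction term of limma, passed for 22 of the 43 genes. The values are interactions on the log2 scale, the change in KO minus the change in WT MSCs. Below 0 were *Uhrf1* (-1.98), *Hells* (-1.53), *Suv39h2* (-1.19), *Dnmt1* (-1.0), *Mbd3* (-0.81), *Ezh2* (-0.69), *Suv39h1* (-0.69), *Hdac9* (-0.61), *Cbx5* (-0.48), *Suz12* (-0.34), *Hdac7* (-0.31) and *Trim28* (-0.23). Above 0 were *Cbx7* (1.10), *Ezh1* (0.72), *Uhrf2* (0.49), *Rnf2* (0.47), *Tet2* (0.43), *Jarid2* (0.43), *Mbd1* (0.38), *Bmi1* (0.26), *Ring1* (0.26) and *Mbd2* (0.23). The 20 proliferation genes were all below 0 in the same test, and their part in these values was not tested.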

How the results depend on the processing

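Of 215 tests of a member in a comparison 130 passed, of which 79 kept their direction and call under every alternative. Leaving aside the fits without 1 library, 98 kept them under every alternative, which include the fit of only the libraries compared. Of the 85 that did not pass, 29 passed in the same direction under at least 1 alternative. Where a call changed, the cause was not tested, beyond fewer libraries or genes where the setting itself removes them. A lone library left in a group was assumed to vary like the others. Leaving out 1 library gave these ranges: between genotypes, undifferentiated, 3 to 17 members higher (15 with all), 0 to 7 lower (6) and 2289 to 5767 genes passing (4943); differentiating, 5 to 13 members higher (12), 1 to 3 DEGs among members (2) and 3096 to 6318 genes passing (6251); interaction, 6 to 9 members above 0 (10). With only the libraries compared, differentiating KO against WT MSCs gave 3 members higher, 4 lower, 1 DEG among members and 3037 genes passing. A pseudocount of 0.01 gave 402 DEGs between undifferentiated genotypes (261). A pseudocount of 1 gave 99 there, 234 between differentiating genotypes (507), 1249 with induction in WT (2198), 2267 in KO MSCs (3511) and 479 for the interaction (947), with 1 member DEG between differentiating genotypes, 1 with induction in WT MSCs (4) and 2 in the interaction (4). Without the variance trend 2 members were lower in undifferentiated KO MSCs. The replicate numbers did not pair the samples (correlations of deviations -0.09 to 0.03), and a replicate block gave 2 members lower there and 12 higher, 13 and 8 in differentiating MSCs, 11 and 17 with induction in WT, 16 and 18 in KO MSCs and 11 and 10 in the interaction. Median centring moved the median of all genes by -0.10 with induction in WT MSCs and turned *Bmi1* with induction in KO MSCs from 0.01, which did not pass, to -0.073 (adjusted p 0.040 in limma). A pseudocount of 0.1 on both genes moved log2 ratios within a library beyond their SD for *Suv39h1* to *Suv39h2* (2.51 in undifferentiated WT and 3.01 in differentiating KO MSCs), *Dnmt1* to *Dnmt3a* (2.42 in undifferentiated WT), *Cbx2* to *Cbx7* (2.07 in undifferentiated WT, 1.08 in differentiating WT and 2.72 in undifferentiated KO) and *Uhrf1* to *Uhrf2* (-1.18 in undifferentiated WT MSCs). With 2 libraries a group the SE differed between members, from 0.03 (*Bmi1*) to 0.24 (*Uhrf1*) on the log2 scale between groups. Differences well above their SE could also fail to pass. An example is *Hdac2* between undifferentiated genotypes (log2 fold change -0.13, SE 0.04, adjusted p 0.060 in limma).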
